A study of Mus musculus with 4 samples.

Results

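Neurog3 and 9 genes that act with it or after it in the first steps of islet cell formation were followed through mouse pancreas development. The members were named genes: Neurog3, Neurod1, Neurod2, Insm1, Fev, Rfx6, Runx1t1, Cbfa2t3, Myt1 and St18. They are 10 of 54532 gene IDs in the deposited tables, and all 10 were among the 14841 genes that reached 1 FPKM in at least 1 stage. FPKM, computed by the authors, counts fragments relative to transcript length and library size, so levels of different genes can be set side by side. RNA sequencing covered 4 stages with 1 sample each, from E11.5 through E13.5 and E15.5 up to E18.5 (E, embryonic day). Each was total RNA from fetal pancreas of wild-type (WT) C57BL/6 mice, with no treatment named, and the series title names the cells as pancreatic epithelial. The labels do not say how the epithelium was isolated or how many embryos were pooled.

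In the developing mouse pancreas, epithelial cells of the trunk that switch on the basic helix-loop-helix (bHLH) factor Neurog3 leave the epithelium and become endocrine cells. Neurog3 is switched on only for a short time in each cell. It activates a further layer of transcription factors, which drive the hormone programmes of the alpha, beta, delta, epsilon and PP cells of the islets. Several of these downstream factors are also used by developing neurons.

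The promoters of Neurog3 and of 3 downstream members are shown, because bHLH factors bind E-boxes (CANNTG), and E-boxes in these windows are in capitals. The windows run 5′ to 3′ from 250 bases before to 50 bases after the RefSeq start site (RefSeq, GRCm38.p6). They are chr10:62132840-62133139 (plus strand) for Neurog3, chr2:79456587-79456886 (minus strand) for Neurod1, chr10:51685268-51685567 (plus strand) for Rfx6 and chr1:74885359-74885658 (minus strand) for Fev.
Neurog3: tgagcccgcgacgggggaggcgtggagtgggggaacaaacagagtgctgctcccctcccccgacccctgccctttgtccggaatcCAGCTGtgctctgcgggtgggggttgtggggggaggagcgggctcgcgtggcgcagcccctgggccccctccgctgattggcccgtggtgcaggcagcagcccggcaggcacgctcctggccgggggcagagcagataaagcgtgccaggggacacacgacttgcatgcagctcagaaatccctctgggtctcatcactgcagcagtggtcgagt
Neurod1: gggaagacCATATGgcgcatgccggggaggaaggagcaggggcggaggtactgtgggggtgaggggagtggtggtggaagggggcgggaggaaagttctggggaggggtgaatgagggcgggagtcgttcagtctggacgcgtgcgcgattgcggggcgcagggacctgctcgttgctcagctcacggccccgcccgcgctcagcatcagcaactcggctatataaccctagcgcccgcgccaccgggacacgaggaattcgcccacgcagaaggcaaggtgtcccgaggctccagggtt
Rfx6: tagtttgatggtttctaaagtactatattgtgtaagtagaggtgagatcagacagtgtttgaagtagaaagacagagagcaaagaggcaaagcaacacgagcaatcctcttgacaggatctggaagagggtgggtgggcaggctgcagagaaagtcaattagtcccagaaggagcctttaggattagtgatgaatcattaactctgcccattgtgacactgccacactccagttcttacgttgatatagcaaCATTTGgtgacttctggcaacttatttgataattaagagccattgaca
Fev: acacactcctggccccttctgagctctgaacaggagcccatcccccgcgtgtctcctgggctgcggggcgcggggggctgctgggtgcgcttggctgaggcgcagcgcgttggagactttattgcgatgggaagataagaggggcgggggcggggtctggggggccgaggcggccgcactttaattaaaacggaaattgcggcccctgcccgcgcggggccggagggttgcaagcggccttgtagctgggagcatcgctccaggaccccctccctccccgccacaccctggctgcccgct

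The Neurog3 window held CAGCTG, with its first base 165 bases before the start site. The Neurod1 window held CATATG at 242 bases before the start site, and the Rfx6 window held CATTTG, which begins at position 3 after it. The Fev window had no CANNTG. RefSeq promoters were found for 7 of the 10 members, with 10 windows in all, and 8 of these windows held CANNTG on either strand, against 72.3% of 32851 mouse promoter windows of the same length. The more specific words were rarer: CAGATG, itself a CANNTG, was in 17.2% of all windows and in 1 window each of Cbfa2t3 and Neurod2. CATATG, also a CANNTG, was in 3.91% of all windows and in the windows of Neurod1 and Neurod2. AAGTT, the core word of the Myt family of zinc-finger proteins, was in 39.3% of all windows and in those of Neurod1 and Rfx6, in 1 of Cbfa2t3, and in all 3 of Myt1. These matches describe letters and not bound sites. The Rfx6 window lies at another start than that of the GENCODE gene, which begins at position 51677756.

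Each deposited value was the authors' mean, and the decimals of these means gave back whole reads of 2 libraries per stage, of an estimated 1.37e+07 to 1.80e+07 reads each. Levels below are FPKM scaled between stages, given as the stage mean with the first and second library after it, and SD is over these 2 libraries. No label calls the libraries separate embryos. Within a stage their ratios of Xist reads to Y-linked reads were close (1.04 and 1.0 on E11.5, 0.910 and 0.917 on E13.5, 7.24 and 6.62 on E15.5, 0.367 and 0.339 on E18.5), while stages differed. SDs and p-values therefore cover no more than the difference between such libraries, and this may be technical. The E11.5 sample stood apart. Erythroid markers had the largest of these sums there, at 9629 FPKM on E11.5, 254 on E13.5, 273 on E15.5 and 595 on E18.5. Markers of neurons summed to 2440 FPKM on E11.5, 36.1 on E13.5, 20.98 on E15.5 and 86.1 on E18.5. Markers of the inner ear summed to 1441, 1.98, 0.767 and 3.17 at the same stages, and mesenchymal markers to 239, 51.9, 49.5 and 89.1. Epithelial markers (24 genes such as Epcam and Krt8, all at 1 FPKM or more in every stage) summed to 1703, 4181, 5352 and 6170. Acinar genes took 0.00267%, 1.93%, 22.6% and 14.1% of all FPKM, and each of 9 endothelial markers stayed under 1 FPKM throughout.

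Neurog3 was at a very low level in the E11.5 sample and among the more abundant transcripts in the later ones. The gene (ENSMUSG00000044312, chromosome 10, 62133090 to 62134763, plus strand, mm10) has a single exon of 1674 bases. Its level was 0.429 FPKM on E11.5 (0.391 and 0.467), 134 on E13.5 (130.2 and 137), 85.8 on E15.5 (85.0 and 86.6) and 200.3 on E18.5 (202 and 199). The E11.5 value rests on 12 and 14 reads, with an exact Poisson 95% interval of 0.280 to 0.629 FPKM that covers counting error only. The order was E18.5, E13.5, E15.5, E11.5, and no library of a stage overlapped with those of the next in this order. Among the measured genes, Neurog3 stood above or level with 8.26% on E11.5 and 97.1%, 94.1% and 98.2% at the later stages. Of its exon bases, 273 (16.3%) also belong to Fam241b on the opposite strand, which was at 10.9, 26.6, 15.6 and 38.0 FPKM over the stages. Whether the counting used strand is not stated, so reads in that stretch cannot be assigned to either gene.

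Neurod1 (ENSMUSG00000034701, chromosome 2, 79452521 to 79456751) encodes the bHLH factor directly downstream of Neurog3 that maturing islet cells and many neurons use, and it followed another course. It was at 197 FPKM on E11.5, 38.7 on E13.5 (37.2 and 40.2), 23.1 on E15.5 (22.5 and 23.7) and 95.2 on E18.5 (94.2 and 96.1). The E11.5 mean could not be split into libraries and has no test. The order was E11.5, E18.5, E13.5, E15.5. Neurod1 shares 201 exon bases (7.37%) with Cerkl on the same strand, and Cerkl was at 2.45, 0.492, 0.319 and 1.20 FPKM. Its close relative Neurod2 (ENSMUSG00000038255, chromosome 11, 98325415 to 98329648), best known from neurons of the cortex, was low, at 1.0 (1.11 and 0.889), 1.14 (1.02 and 1.26), 1.98 (1.93 and 2.02) and 3.39 (3.35 and 3.44). The Neurod2 libraries of E13.5 and E11.5 overlapped, the only neighbouring stages of any member, among those split, to do so.

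Fev (ENSMUSG00000055197, chromosome 1, 74881509 to 74885419) and Rfx6 (ENSMUSG00000019900, chromosome 10, 51677756 to 51730432) were low on E11.5 as well. Fev, an ETS-family factor that marks endocrine precursors after Neurog3 and also serotonergic neurons, was at 0.256 FPKM on E11.5 (0.236 and 0.276, from 7 and 8 reads), 68.3 on E13.5 (66.6 and 69.9), 29.9 on E15.5 (31.8 and 28.05) and 61.0 on E18.5 (62.3 and 59.6). It was the only member highest on E13.5. Rfx6, a winged-helix factor needed in mice for most islet cell types, was at 0.654 (0.626 and 0.683), 9.86 (8.99 and 10.7), 5.53 (5.67 and 5.39) and 16.8 (16.8 and 16.8) FPKM, in the same stage order as Neurog3. Insm1 (ENSMUSG00000068154, chromosome 2, 146221921 to 146225020), a zinc-finger factor of endocrine and neuroendocrine cells, was already at 20.5 FPKM on E11.5 (20.6 and 20.5), then at 22.2 (21.7 and 22.7), 7.72 (7.84 and 7.60) and 25.1 (26.6 and 23.6). Insm1 alone among the members had E11.5 and E13.5 nearly level at more than 20 FPKM.

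The corepressors and the Myt family reached at most 10.8 FPKM, in Runx1t1 on E11.5. Runx1t1 (ENSMUSG00000006586, chromosome 4, 13743436 to 13893649) and Cbfa2t3 (ENSMUSG00000006362, chromosome 8, 122625141 to 122699109) encode corepressors of the ETO family. Runx1t1 was at 10.8 FPKM on E11.5 (10.9 and 10.7), 4.86 on E13.5 (4.99 and 4.74), 4.57 on E15.5 (4.42 and 4.73) and 8.56 on E18.5 (8.53 and 8.60), the same stage order as Neurod1. Cbfa2t3 was the only member highest on E15.5, at 0.778 (0.775 and 0.781), 2.44 (2.47 and 2.41), 5.68 (5.49 and 5.87) and 4.49 (4.80 and 4.19). Myt1 (ENSMUSG00000010505, chromosome 2, 181763332 to 181827797), a zinc-finger factor that works with Neurog3 in endocrine precursors, was at 2.20 (2.26 and 2.14), 1.79 (1.70 and 1.89), 2.43 (2.27 and 2.59) and 4.08 (4.08 and 4.07). Its relative St18 (ENSMUSG00000033740, chromosome 1, 6487231 to 6860940), also called Myt3, was at 4.34 (4.42 and 4.25), 3.62 (3.49 and 3.75), 2.65 (2.46 and 2.84) and 7.24 (7.81 and 6.67). Both were highest on E18.5.

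**Figure D1:**
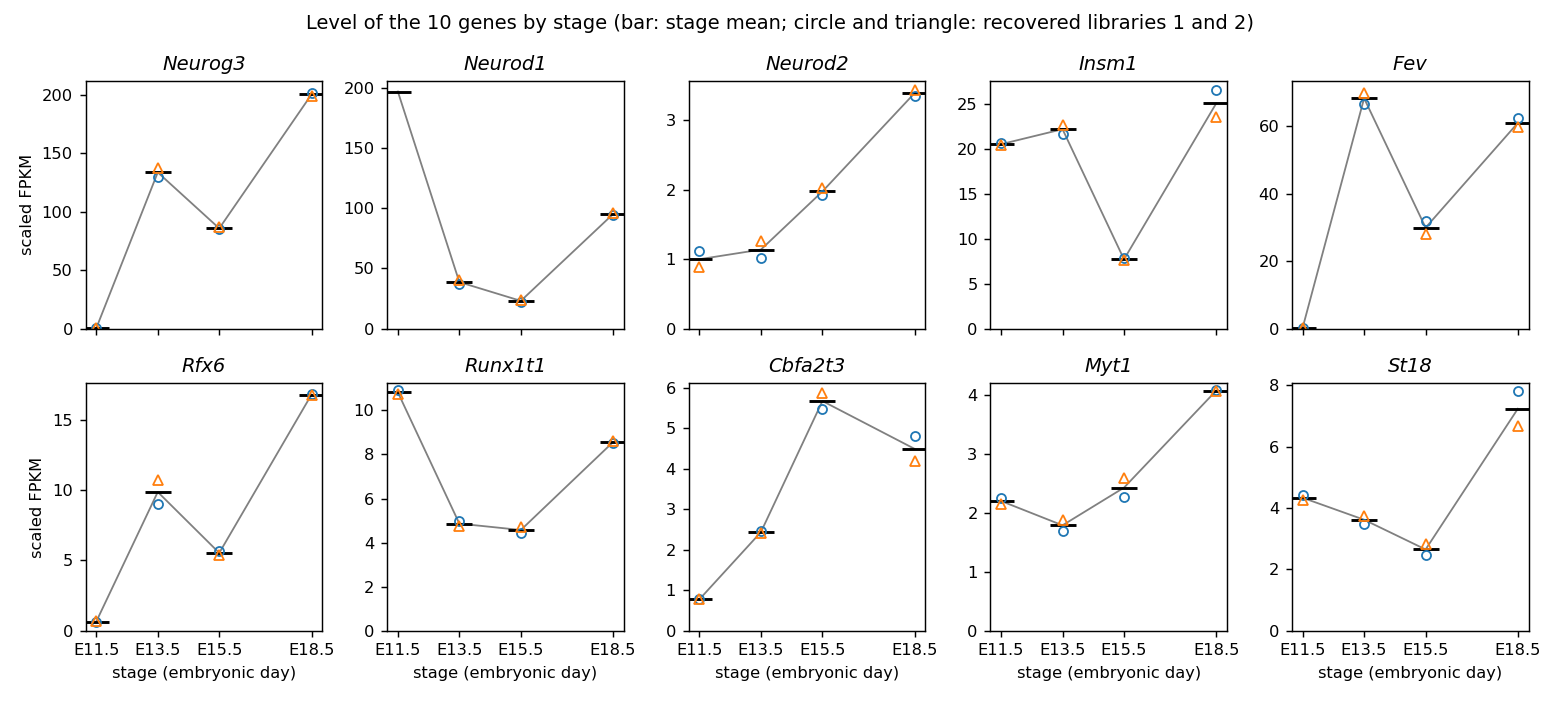
Scaled FPKM (y axis, linear and different for each gene) of the 10 genes against embryonic day (x axis); bars are stage means, circles and triangles the recovered libraries 1 and 2, and Neurod1 on E11.5 has a mean only. Neurog3, Fev, Rfx6 and Cbfa2t3 start below 1 FPKM on E11.5, Neurod1 and Runx1t1 are highest there, and 7 of the 10 genes are lower on E15.5 than at both E13.5 and E18.5.

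Over the 10 genes, 6 were highest on E18.5, where 27.3% of all measured genes were highest, and 5 were lowest on E11.5, where 34.1% of all measured genes were lowest. On E15.5 7 were below both E13.5 and E18.5, a shape shared by 35.7% of measured genes. One of the 7, Runx1t1, was nearly level, with 4.57 FPKM on E15.5 and 4.86 on E13.5 (limma adjusted p = 0.235). The stage orders of Neurog3, Neurod1, Fev, Rfx6, Runx1t1 and Cbfa2t3 were the same under 3 other scalings, namely none, equal totals, and epithelial genes only. With equal totals Insm1 became highest on E11.5 and Myt1 lowest on E15.5, and with epithelial scaling Neurod2, Insm1, Myt1 and St18 became highest on E11.5.

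The first comparison, E13.5 against E11.5, asks what the cascade did across the start of the main wave of endocrine differentiation. A rule of size was used, which asks for a 2-fold difference or more of FPKM + 1 on the log2 scale and 5 FPKM or more in the higher stage. By this rule 3 members were higher on E13.5, namely Neurog3, Fev and Rfx6, and 2 were lower, Neurod1 and Runx1t1. Neurod2 and Myt1 stayed below 5 FPKM at all stages, so the rule could not call them in any comparison. The same rule called 5.77% of all measured genes higher and 5.73% lower. Neurog3 was at 134 ± 5.01 FPKM on E13.5 and 0.429 ± 0.0538 on E11.5 (SD, n = 2 libraries each), a ratio of levels of 312. On the log2 scale the difference was 6.56 (SE 0.0409 and limma adjusted p = 9.65e-09). The log2 difference was 5.78 for Fev (SE 0.0644 and limma adjusted p = 3.04e-08) and 2.71 for Rfx6 (SE 0.0799 and limma adjusted p = 7.82e-07). Neurod1 was at 38.7 FPKM on E13.5, against 197 on E11.5, a log2 difference of -2.32 with no test.

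Among the 9 members that limma could test on the recovered libraries, 4 rose and 2 fell at an adjusted p of 0.05, where it called 31.7% of all genes tested as rising and 37% as falling. Cbfa2t3 rose (log2 difference 0.95, limma adjusted p = 3.92e-05), although it stayed below 5 FPKM at both stages. Runx1t1 fell by 1.01 on the log2 scale (limma adjusted p = 5.16e-06), which lies just inside the 2-fold limit. Without the first E11.5 library the difference was -0.9999, short of the limit, and without the second E13.5 library it was -0.98. Myt1 fell by 0.20 (limma adjusted p = 0.0425). Insm1 differed by 0.11 (limma adjusted p = 0.157), Neurod2 by 0.10 (limma adjusted p = 0.353) and St18 by -0.21 (limma adjusted p = 0.0737).

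Most of the genes around the cascade that passed the rule were higher. Of 32 measured genes of the wider endocrine programme, 16 were higher and 4 lower on E13.5, with a median log2 difference of 1.31, against -0.03 over all genes and 0.10 over the 10 members. Pax4, a factor of beta and delta cell precursors, was at 67.0 FPKM on E13.5 and 0.248 on E11.5. Isl1, a LIM-homeodomain factor shared by islet cells and motor and sensory neurons, was lower, with 40.4 FPKM on E13.5 against 129 on E11.5. Of 15 genes of the progenitor and trunk epithelium 9 were higher and 0 lower, Pdx1 among them at 79.0 FPKM on E13.5 and 2.93 on E11.5.

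Markers of other tissues differed in how many were lower on E13.5. Of 19 measured neuronal markers 16 were lower and 0 higher, of 11 otic markers 10 were lower, and of 9 erythroid markers all 9 were lower. Of 13 mesenchymal markers 8 were lower, of 7 neural crest and glial markers 3, and of 6 leukocyte markers 1, and none of these was higher. Endothelial markers were too low to be counted. The neuronal growth-cone gene Gap43 was at 2.38 FPKM on E13.5, against 520.0 on E11.5, and the otoconial gene Oc90 was listed at 0 on E13.5, against 1251 on E11.5. Of 24 epithelial markers 16 were higher on E13.5. Neuronal members of the Neurog and Neurod families were detected on E11.5, with Neurog2 at 2.29 FPKM, Neurod6 at 2.79, Neurod4 at 1.11 and Neurog1 at 0.784, and all 4 were listed at 0 on E13.5. The part of these tissues in the E11.5 levels of Neurod1, Runx1t1, Insm1, St18 and Myt1 was not tested. Whether a small share of pancreatic cells lowered Neurog3, Fev, Rfx6 and Cbfa2t3 in the E11.5 sample was not tested either. In bulk RNA, fewer cells of a type and less RNA per cell cannot be told apart, and this holds for every comparison here. With scaling on the epithelial genes alone, the median of all genes moved to -1.26 and that of the members to -1.08, and the rule counted 5 lower members, Neurod1, Insm1, Runx1t1, Myt1 and St18, while Neurog3 stayed 5.75 higher on the log2 scale. The split over all genes was then 213 higher and 7787 lower, against 857 and 851 with the scaling used here and 795 and 1183 with equal totals. The epithelial genes are not particular to the pancreas, so scaling on them cannot correct for the share of pancreatic epithelium.

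**Figure D2:**
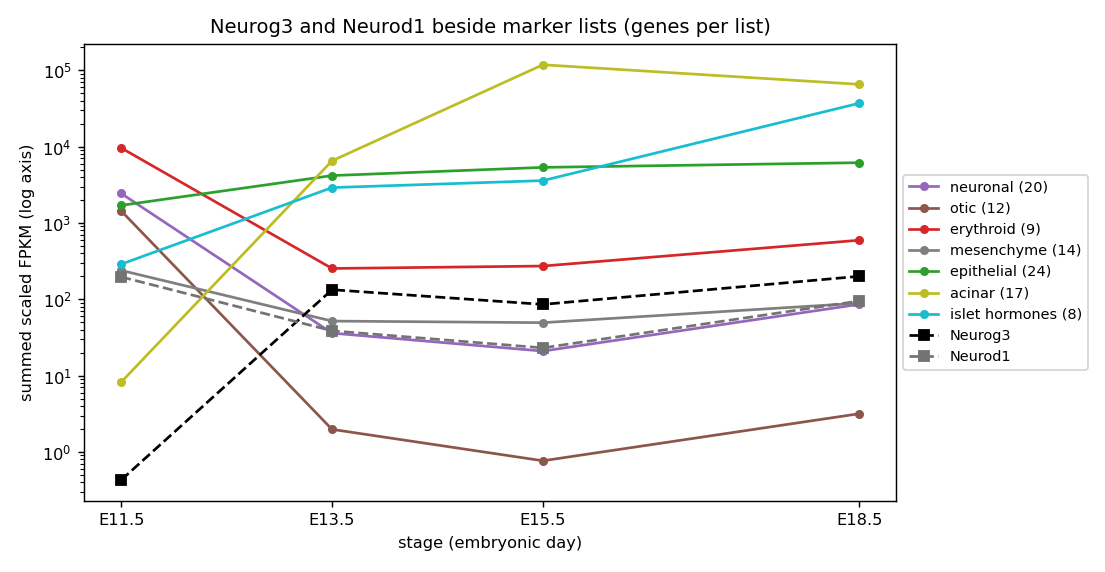
Summed scaled FPKM (y axis, log scale) of marker lists, with the number of genes listed in brackets, and the levels of Neurog3 and Neurod1 (dashed) against embryonic day. Neurod1 and the neuronal list both have their highest value on E11.5 (197 and 2440 FPKM), whereas Neurog3 has its lowest (0.429 FPKM).

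The second comparison set E15.5 against E13.5, where 16 of 17 acinar genes were higher, and 6 of the 10 members fell by limma. On E15.5 Insm1 and Fev were lower than on E13.5 by the rule of size and no member was higher, where the rule called 3.64% of all genes higher and 1.48% lower. Insm1 was at 7.72 ± 0.165 FPKM on E15.5 and 22.2 ± 0.736 on E13.5 (SD, n = 2), with a log2 difference of -1.41 (SE 0.0600 and limma adjusted p = 1.41e-05). Fev was at 29.9 ± 2.67 on E15.5 and 68.3 ± 2.29 on E13.5, with a log2 difference of -1.16 (SE 0.0644 and limma adjusted p = 3.35e-05). By limma 6 members fell, against 27.5% of all genes tested, and 3 rose, against 29.1%. Neurog3 fell by 0.63 on the log2 scale (limma adjusted p = 5.83e-05), Neurod1 by 0.72, Rfx6 by 0.73 and St18 by 0.34 (limma adjusted p = 0.016). Cbfa2t3 rose by 0.96, Neurod2 by 0.48 and Myt1 by 0.30 (limma adjusted p = 0.012), and Runx1t1 differed by -0.07 (limma adjusted p = 0.235).

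The values of this pair of stages moved with the scaling. Acinar transcripts took 22.6% of FPKM on E15.5 and 1.93% on E13.5, and their part in the differences was not tested. With equal totals the median over all genes was -0.41 and that over the members -1.03, the rule counted 5 lower members, and the Myt1 difference turned to -0.12. Over all genes equal totals gave 190 higher and 1357 lower, against 540 and 219 with the scaling used here and 377 and 245 with epithelial scaling. Of the 32 wider endocrine genes, 2 were higher and 4 lower on E15.5. Pax4 was at 26.5 FPKM on E15.5 and 67.0 on E13.5, and the granule protein gene Chgb was at 162 on E15.5 and 816 on E13.5. Limma tested 25 of the endocrine genes, of which 19 fell and 3 rose. The Notch target Hes1, a repressor of Neurog3, was higher on E15.5, with 153 FPKM against 74.9 on E13.5. Of the 8 islet hormones 7 were higher on E15.5, Ins2 with 614 FPKM on E15.5 against 29.0 on E13.5.

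The third comparison set E18.5 against E15.5, and here 9 of the 10 members rose by limma. On E18.5 6 members were higher than on E15.5 by the rule of size (Neurog3, Neurod1, Insm1, Fev, Rfx6 and St18) and 0 were lower, against 6.29% of all genes higher and 5.55% lower. Neurod1 differed most among the members, with 95.2 ± 1.35 FPKM on E18.5 and 23.1 ± 0.901 on E15.5 (SD, n = 2), a log2 difference of 1.996 (SE 0.0501 and limma adjusted p = 3.50e-06). Neurog3 was at 200.3 ± 2.04 on E18.5 and 85.8 ± 1.08 on E15.5, a log2 difference of 1.21 (SE 0.0409 and limma adjusted p = 2.60e-06). The log2 differences were 1.58 for Insm1, 1.44 for Rfx6 and 1.17 for St18. Fev, at 1.002, was just inside the limit. Without the second E15.5 library its difference was 0.92, and without the first E18.5 library it was 0.97, both outside the limit.

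By limma 9 members rose on E18.5, where 38.1% of all genes tested rose, and 1 fell, where 30.9% fell. Besides the 6 above, Runx1t1 rose by 0.78 (limma adjusted p = 2.12e-05), Myt1 by 0.57 (limma adjusted p = 0.000494) and Neurod2 by 0.56 (limma adjusted p = 0.00128). Cbfa2t3 fell by 0.28 (limma adjusted p = 0.0114). The median difference was 1.09 over the members, against 0.04 over all genes and 1.03 over the 32 wider endocrine genes, of which 17 were higher and 1 lower. That lower gene was the Notch ligand Dll1, at 1.05 FPKM on E18.5 and 5.01 on E15.5. Neuronal markers were also higher for 5 of 19 genes, with the sum at 86.1 FPKM on E18.5 and 20.98 on E15.5, and their part in the result was not tested. All 4 neuronal family relatives named above were listed at 0 on E18.5. All 8 hormones were higher, with Gcg at 15751 FPKM on E18.5 and 1383 on E15.5. Equal totals gave 1039 genes higher and 534 lower, against 933 and 823.

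**Figure D3:**
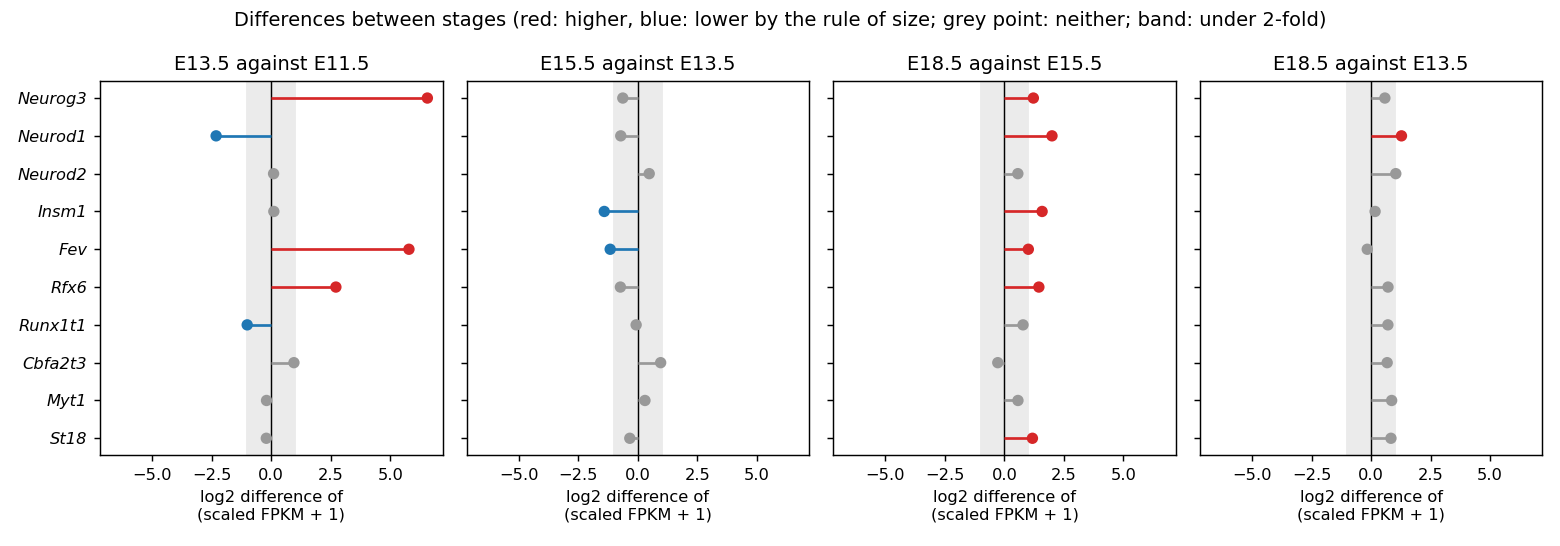
Log2 differences of (scaled FPKM + 1) of the 10 genes in 4 comparisons, with the later stage over the earlier one; red points are higher and blue points lower by the rule of size, grey points neither, and the band marks less than 2-fold. Neurog3, Fev and Rfx6 stand far to the right for E13.5 against E11.5, and 6 genes are red for E18.5 against E15.5; Neurod2 for E18.5 against E13.5 lies past the band but below 5 FPKM.

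In the fourth comparison, E18.5 against E13.5, Neurod1 alone was higher by the rule of size, with 95.2 FPKM on E18.5 against 38.7 on E13.5 (log2 difference 1.28, SE 0.0501 and limma adjusted p = 1.56e-05), and no member was lower. Over all genes the rule called 5.34% higher and 3% lower. By limma 8 members rose and 0 fell, where 36% of all genes tested rose and 24.9% fell. Neurog3 rose by 0.58 (limma adjusted p = 4.86e-05), Rfx6 by 0.72, Myt1 by 0.86, St18 by 0.83 and Neurod2 by 1.04. The differences for the remaining pair were 0.17 for Insm1 (limma adjusted p = 0.0504) and -0.16 for Fev (limma adjusted p = 0.0711). With equal totals the Neurod1 difference was 0.83, short of the limit, and that of Insm1 turned to -0.26, while with epithelial scaling Insm1 was at -0.03. The split over all genes was 793 higher and 445 lower, against 472 and 1186 with equal totals and 517 and 600 with epithelial scaling. Of the 32 endocrine genes 13 were higher and 2 lower, Dll1 among the lower ones. The comparisons share stages, so their values are not independent of each other.

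The balance between Neurog3 and its downstream genes differed between stages. The 10 levels summed to 238 FPKM on E11.5, 287 on E13.5, 169 on E15.5 and 426 on E18.5. Neurod1 made up 82.8% of the sum on E11.5, and Neurog3 46.7%, 50.7% and 47.0% on E13.5, E15.5 and E18.5. For each unit of Neurog3, Neurod1 was at 459 on E11.5, 0.289 on E13.5 (0.286 and 0.293 in the libraries), 0.269 on E15.5 (0.264 and 0.274) and 0.475 on E18.5 (0.467 and 0.483). The Neurod1 ratio on E18.5 thus lay above both libraries of E13.5 and E15.5. Fev was at 0.597, 0.511, 0.349 and 0.304, and its E11.5 ratio rests on 15 reads over 26. Every E11.5 ratio divides by these 26 reads of Neurog3, in the sample where neuronal markers summed to 2440 FPKM. From E13.5 on, Rfx6 stayed between 0.0644 and 0.0838, and Insm1 was at 0.166, 0.0900 and 0.125. Pax4, no member, was at 0.577 on E11.5 (0.772 and 0.414 in the libraries), then at 0.501, 0.308 and 0.330. A ratio within a sample does not depend on the scaling between stages.

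**Figure D4:**
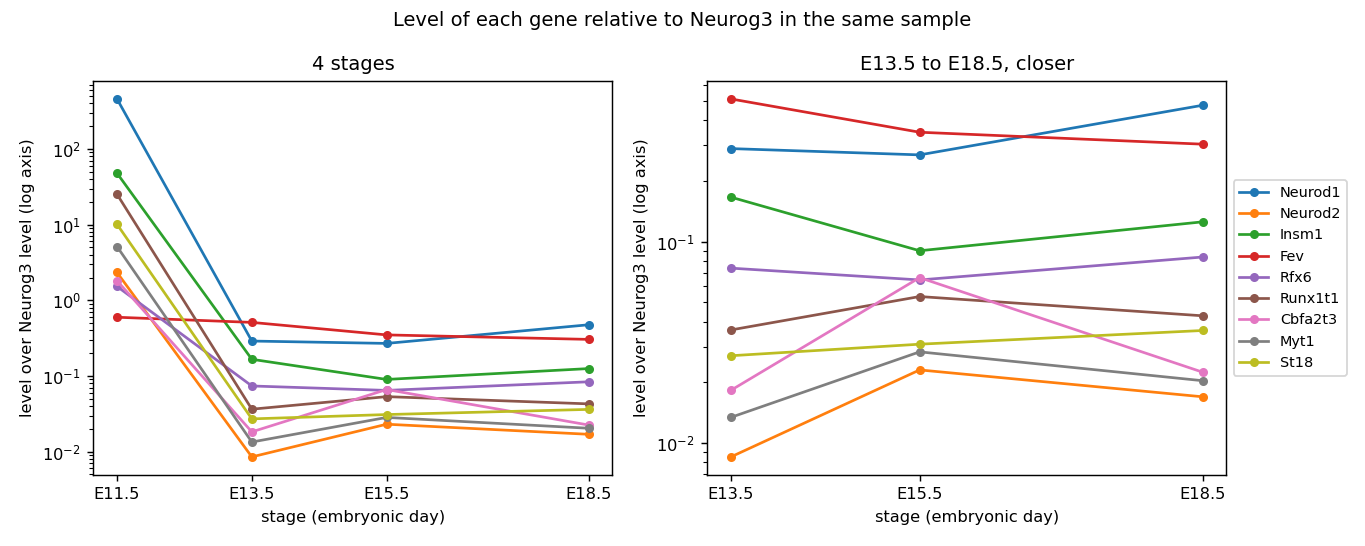
Level of 9 genes divided by the Neurog3 level of the same sample (y axis, log scale) against embryonic day, over 4 stages on the left and over E13.5 to E18.5 on the right; each point is a stage mean. On E11.5 8 of the 9 ratios are above 1, Fev being below at 0.597, and from E13.5 on all are below 1. The E11.5 ratios all divide by 26 Neurog3 reads.

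Genes with a stage pattern most like that of Neurog3 were sought among 3669 protein-coding genes at 20 FPKM or more in some stage. Each level was taken as a percentage of the gene's highest stage, which for Neurog3 was 0.214%, 66.8%, 42.8% and 100%, and the mean absolute difference over the 4 stages was the measure. The 8 nearest were Pim2 at 3.07 percentage points, ccdc198 at 3.42, 0610040J01Rik at 3.49, Gsta3 at 3.95, Gch1 at 4.60, Tmc4 at 4.83, Cd164l2 at 5.50 and Cyb561 at 5.77. Pim2, which encodes a serine/threonine kinase, was at 5.84, 54.1, 31.4 and 82.1 FPKM. Gch1, the first enzyme of tetrahydrobiopterin synthesis, was at 1.19, 20.5, 16.4 and 39.2. Rfx6 differed from Neurog3 by 5.39 points but did not reach 20 FPKM. Of the members that did, Fev differed by 11.3 points with 51 genes closer, Insm1 by 28.9 with 791 closer and Neurod1 by 57.4 with 3465 closer. With 4 points per gene this measure describes these samples only. With a minimum of 5 FPKM 4 of the 8 genes stayed among the nearest 8, and with equal totals 6 did.

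The hormone genes that the cascade leads to were also measured at each stage. Their sum was 289, 2909, 3592 and 37085 FPKM over the stages, or 0.0938%, 0.859%, 0.687% and 8.01% of all FPKM. Whether the hormone sum was higher on E15.5 than on E13.5 thus turned with the scaling, since its share of all FPKM was lower on E15.5. Gcg was at 211 FPKM on E11.5, in the sample with Neurog3 at 0.429, and at 2400 on E13.5, 1383 on E15.5 and 15751 on E18.5. Ins2 was listed at 0 on E11.5 and was at 29.0, 614 and 5323 at the later stages. Sst was at 18.8 on E11.5, 1.06 on E13.5, 120.3 on E15.5 and 3938 on E18.5. Of 12 measured relatives of the members, which included Rfx3 and Cbfa2t2, none reached 5 FPKM, so the rule of size could call none of them. Rfx3 lay between 2.01 and 3.43 FPKM and Cbfa2t2 between 3.38 and 4.61.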

How the data were processed

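The deposited files hold FPKM for each Ensembl gene, which the column headers call averages, computed by the authors per the file headers. HISAT2 2.0.5 and mm10 are named in the submitters' processing notes. Neither a counting tool nor an annotation or a strand setting is given in the sources used here. GENCODE M21, on the same build, supplied symbols (for 54495 of 54532 IDs), coordinates and exon lengths.

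Median-of-ratios factors over 9884 genes that reached 1 FPKM in all stages scaled the samples, by 0.988 (E11.5), 1.03 (E13.5), 1.03 (E15.5) and 0.962 (E18.5). A pseudocount of 1 was added before log2, so fold changes of low genes are understated. As each stage has 1 sample, the planned result was the rule of size without a test, over genes reaching 1 FPKM in any stage.

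FPKM multiplied by exon length was then split into whole reads of 2 libraries per stage. A split was kept where a single pair of whole reads matched the value within 0.8 of its last printed place and chance alone would give no more than 0.1 pairs. This covered 94.7% to 95.0% of genes above 0, while 906 to 937 genes per stage matched no pair. The model of rounding and the limit of 0.1 were settled after values were seen. For Neurog3, chance would give 0.0753 pairs (E13.5) and 0.0612 pairs (E18.5). Simulated data built with the same formula gave 88305 right and 0 wrong splits, which is not the error rate in these files. The recovered FPKM denominators are no plain read totals. The spread between libraries of the same stage was 1.23 to 1.38 times that of counting. Genes with very many reads, abundant hormones and enzymes among them, were left unsplit.

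Limma 3.58.1 in R 4.3.3 compared the log2 values of split genes over all 8 libraries, with a trended prior variance and adjustment by Benjamini-Hochberg over every gene tested. Tested on simulated data (E13.5 against E11.5, 10599 genes), it called 50 of 50 genes raised 2-fold, 34 of 50 raised 1.5-fold, 44 of 50 lowered 2-fold and 4 of 10399 left as they were. Simulated libraries were independent draws, so variation between embryos is not covered.

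Named genes followed a rule: all 10 members, all hormones and family relatives, the 4 highest of each other list, up to 2 per direction and comparison past the rule of size, and the 8 genes nearest to Neurog3. The members, the lists and the rule were chosen with earlier results of these data known, and the genes described and the 4 promoters shown were picked after values were seen. Protein sequences were planned and are not used here.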

Additional observations from a re-analysis of the deposited data

How the results depend on the processing

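No paired analysis was possible because each stage has 1 sample and the recovered libraries carry no numbers from the labels. Over 599 alternative values of the members' log2 differences, 468 counted as the same, 74 as moved, 35 as newly called and 22 as no longer called. A called difference counted as the same if it kept its call. An uncalled one did so if it stayed within the spread of the libraries or, with limma, stayed uncalled. Settings of fold, minimum or filter leave a log2 difference as it is and can change only its call. Leaving out 1 of 2 libraries shifts an uncalled difference by less than the spread allowed. Agreement under these settings was thus largely fixed in advance. Equal totals kept 16 of 40 differences the same, and epithelial scaling 18 of 40. Of the 35 newly called, 20 were limma calls at any fold. Moved values were uncalled before and could turn sign. Insm1 at E13.5 against E11.5 went from 0.11, uncalled, to -1.39, called lower, with epithelial scaling. No called difference turned its direction. The cause of a change was not tested unless the setting itself fixes it, such as a larger fold.

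Counts over all genes are listed here only where they moved by more than 1.5-fold. For genes higher at E13.5 than at E11.5 (857), a 1.5-fold limit gave 1633, a 3-fold limit 405, limma at any fold 4289, a minimum of 1 FPKM 1294, a pseudocount of 5 529 and epithelial scaling 213. For genes lower there (851) the same settings gave 1520, 521, 5013, 1699, 556 and 7787, and a minimum of 10 FPKM gave 531. At E15.5 against E13.5 the genes higher (540) became 1299 at 1.5-fold, 202 at 3-fold, 3948 with limma, 334 with a pseudocount of 5 and 190 with equal totals. The genes lower (219) became 793, 50, 3721, 95 and 1357 under these settings, and 348 with a minimum of 1 FPKM. At E18.5 against E15.5 the genes higher (933) became 1765 at 1.5-fold, 399 at 3-fold, 5196 with limma, 1426 with a minimum of 1 FPKM and 496 with a pseudocount of 5. The genes lower (823) became 1695, 238 and 4210 at 1.5-fold, 3-fold and with limma, 495 with a pseudocount of 5 and 534 with equal totals. At E18.5 against E13.5 the genes higher (793) became 1506, 407 and 4884 at 1.5-fold, 3-fold and with limma, 1261 with a minimum of 1 FPKM, 481 with a pseudocount of 5, 472 with equal totals and 517 with epithelial scaling. The genes lower (445) became 1107, 107, 3376, 243 and 1186 at 1.5-fold, 3-fold, with limma, with a pseudocount of 5 and with equal totals.

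Among the members, the 3 higher at E13.5 than at E11.5 became 2 with a minimum of 10 FPKM and 4 with limma. The 2 lower there became 1 at 3-fold, without scaling or with a pseudocount of 5, and 5 with epithelial scaling. Leaving out each library in turn, chosen after seeing the data, gave 1 to 2, and Runx1t1 was the member lost. For Neurod1, whose E11.5 mean was not split, leaving out an E11.5 library could change nothing, so those settings did not test it. At E15.5 against E13.5 the count higher, 0, became 1 at 1.5-fold and with a pseudocount of 0.1, and 3 with limma. The count lower, 2, became 5 at 1.5-fold and with equal totals, 0 at 3-fold and 6 with limma. At E18.5 against E15.5 the 6 higher became 1 at 3-fold, 7 at 1.5-fold, 4 with a pseudocount of 5, and 5 without scaling or with epithelial scaling. Leaving out a library there gave 5 to 6. Limma gave 9 higher, and 1 lower in place of 0. At E18.5 against E13.5 the 1 higher became 4 at 1.5-fold, 0 at 3-fold and with equal totals, 8 with limma and 2 with a minimum of 1 FPKM.

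Depth limits the E11.5 values of Neurog3 (26 reads), Fev (15 reads) and Rfx6 (95 reads), which were counted from few reads.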
